A study of Mus musculus with 4 samples.

Results

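Selective autophagy delivers chosen cargo, such as ubiquitin-tagged protein clumps or damaged mitochondria, to the lysosome. Cargo receptors carry it out: each holds its cargo with one part of the protein and LC3 family proteins on the growing autophagosome membrane with a short motif in another. The ATG16L1 protein belongs to the complex that attaches LC3 proteins to that membrane, and several receptor proteins, p62 among them, are themselves degraded with their cargo, so that p62 protein is known to build up where autophagy is blocked. The arrays described here measured receptor mRNA, not protein.

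The cargo receptors were chosen by name: Sqstm1, Nbr1, Tax1bp1, Calcoco1, Bnip3l and Fundc1, with every probe set whose platform annotation gives that symbol alone. Of these 6 genes, 5 had such probe sets, 13 in all, among 18193 genes named on the array by 1 symbol and 45037 probe sets. A probe set is a group of short array probes whose signals are combined into 1 value. The 3 probe sets of Bnip3l also carry the symbol of its pseudogene, Bnip3l-ps, so they fell outside that choice and are described apart. Of the 13 probe sets, 12 were bright enough to be tested and 1, a dim probe set of Sqstm1, was not.

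The RNA came from total thymocytes, that is, cells of the thymus taken without sorting and made up mainly of T cells in development. The hypomorph animals, 2 in number, carried an allele of Atg16l1 with reduced function, and the 2 control animals are described as wild type. All were 7 weeks old, independent of each other, and listed as a male and a female in each group, without saying which array held which. No source used here gives the kind of allele or the strain. Each animal gave 1 Affymetrix array, and the number of arrays limits the precision of every value. In a bulk sample of this kind, fewer cells of a type and less RNA per cell cannot be told apart.

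The arrays had median signals of 38.4 and 27.4 in hypomorphs and 23.5 and 27.4 in controls, so each was centred on a common median, on a log2 scale with a small pseudocount. After centring the median log2 change of the 10235 tested genes was still 0.21 (hypomorph minus control), and changes are therefore also given relative to that median. Atg16l1 checked the labels: its tested probe set had signals of 108 and 70.8 in hypomorphs, against 184 and 241 in controls, which put the log2 change at -1.57 ± 0.18 (SE, n = 2 per group; adjusted p 0.0142 in limma). Thymocyte markers were bright on all arrays, with the summed centred signal of 6 of them at 18736 and 21401 in hypomorphs and 17909 and 21599 in controls.

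No cargo receptor mRNA differed between the groups past the threshold, an adjusted p under 0.05 in limma over all 22519 tested probe sets. The call was made for 0 of the 12 receptor probe sets and for 0.0622% of all tested probe sets. The adjusted p-values of the 12 lay between 0.230 and 0.889. Their log2 changes lay between -0.11 and 0.53 with a median of 0.37, where the median of all tested probe sets was 0.18. Relative to the median of the tested genes, 9 of the 12 lay above and 3 below, against 44.8% above among all tested probe sets. At an unadjusted p under 0.05, 3 of the 12 were higher in hypomorphs, against 14.9% of all tested probe sets, and none was lower, against 1.19%. In 8 of the 12 both hypomorph arrays lay above both control arrays after centring, against 43.8% of all tested probe sets. These counts were chosen with earlier results of these arrays known and describe the receptors without showing that they stand apart. Quantile normalization equalises the whole distribution of each array. With it, 0 of the 12 had an unadjusted p under 0.05, and in 3 of them both hypomorph arrays lay above both controls. Over all tested probe sets, 1558 of 22519 had an unadjusted p under 0.05 in limma with it, in either direction, against 3624 as reported. The share with both hypomorph arrays above both controls was not taken in that setting.

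**Figure D1:**
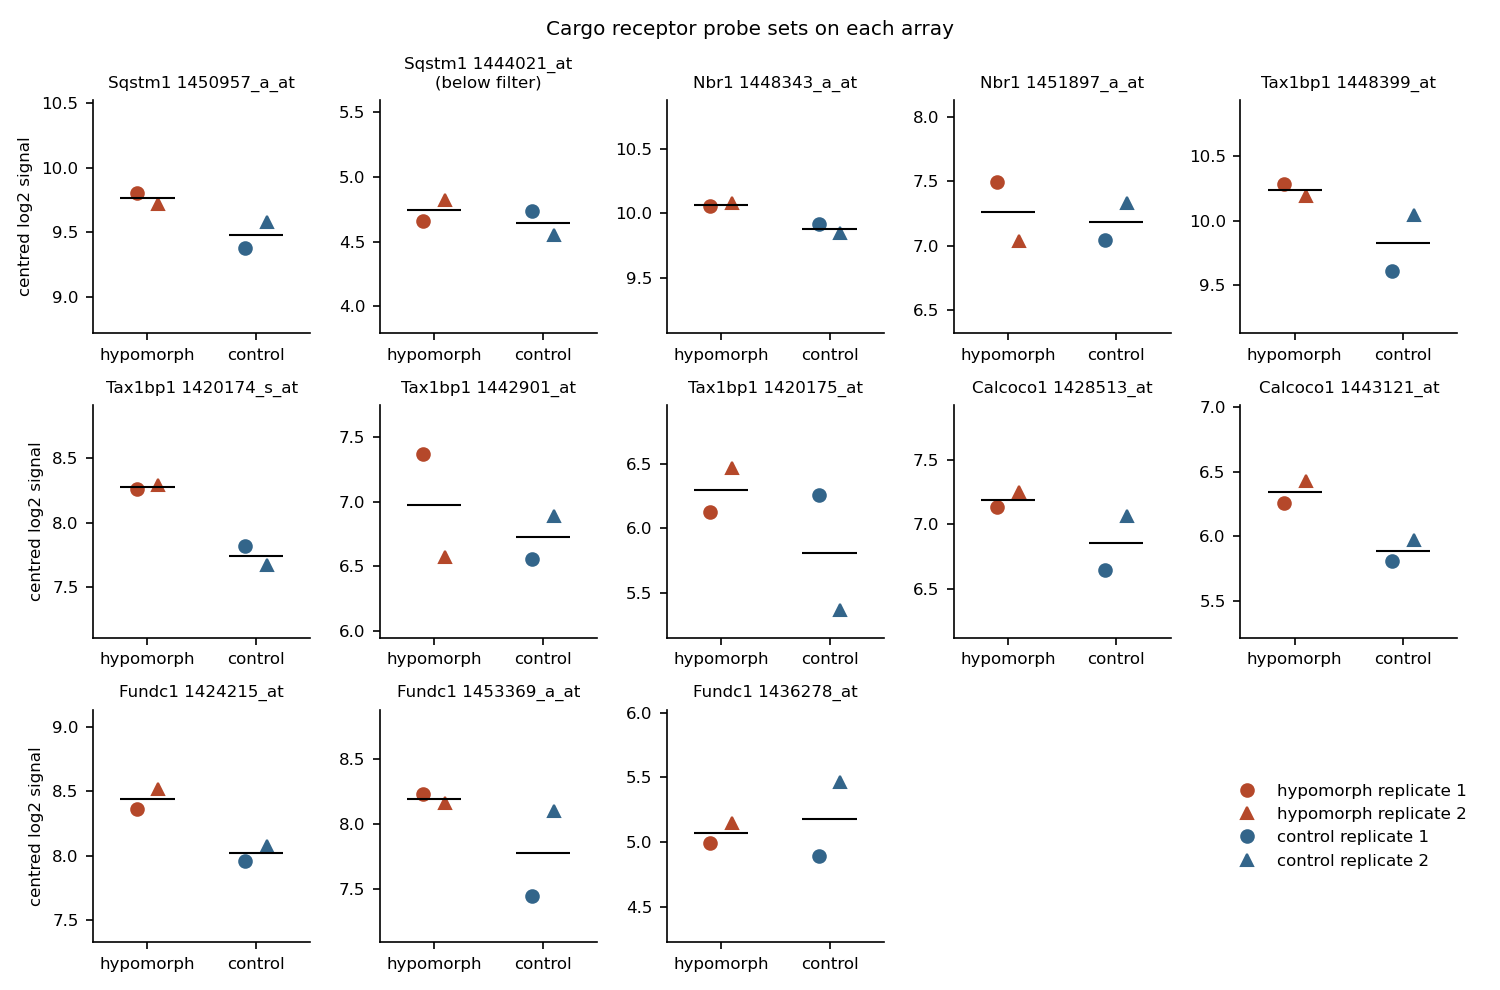
Centred log2 signal (vertical axis, a span of the same size in each panel) of the 13 cargo receptor probe sets on the hypomorph arrays (left, red) and the control arrays (right, blue), with circles for replicate 1, triangles for replicate 2 and a line at the mean of the 2 arrays. The groups lie apart for 8 probe sets, such as Tax1bp1 1420174_s_at, and overlap for 5, such as Nbr1 1451897_a_at.

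Sqstm1 encodes p62, the receptor that binds ubiquitin chains and gathers tagged proteins into bodies for autophagy. Its bright probe set, 1450957_a_at, had deposited signals of 1174 and 806 in hypomorphs, against 552 and 730 in controls. On the centred log2 scale the arrays stood at 9.81 and 9.72 in hypomorphs and at 9.38 and 9.58 in controls. Both hypomorph arrays thus lay above both controls, but the gap between the groups was smaller than the distance between the control animals. The log2 change was 0.29 ± 0.13 (SE), a 1.22-fold difference with an adjusted p of 0.320 in limma, and the 95% confidence interval of the log2 change ran from -0.01 to 0.58. Relative to the median of the tested genes the change was 0.07, and without hypomorph replicate 1 it was -0.01. Without control replicate 1 the log2 change itself was 0.19. The dim probe set, 1444021_at, had signals of 30.8 and 24.8 in hypomorphs and 19.9 and 20.2 in controls, fell below the filter, and overlapped between the groups once the arrays were centred.

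Nbr1 encodes a receptor of similar build to p62, which binds ubiquitin and LC3 and takes part in the turnover of protein clumps and peroxisomes. Its probe set 1448343_a_at had signals of 1398 and 1030 in hypomorphs, against 801 and 879 in controls, or 10.06 and 10.08 against 9.91 and 9.85 after centring. The 2 animals of each group were close to each other and the groups did not overlap. The log2 change of 0.19 ± 0.13 (SE) was 1.14-fold (95% confidence interval 0.938 to 1.38), with an adjusted p of 0.456 in limma. This change lay 0.02 below the median of the tested genes (-0.02), and with quantile normalization it was -0.06. The other Nbr1 probe set, 1451897_a_at, overlapped between the groups at 7.49 and 7.04 in hypomorphs and 7.05 and 7.33 in controls. Its log2 change was 0.08 (adjusted p 0.865 in limma), and its direction turned without hypomorph replicate 1, to -0.15.

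The windows upstream of the annotated starts of these ubiquitin receptor genes are shown because Sqstm1 is a textbook target of the lysosomal regulator TFEB and of NRF2, which act through short DNA motifs. Both sequences are the 250 bases before the start, from RefSeq on GRCm38.p6, written 5′ to 3′ on the gene's strand, with GC boxes (GGGCGG, either strand) and CCAAT boxes (CCAAT, either strand) in capitals. The Sqstm1 window is chr11:50210821-50211070 on the minus strand and the Nbr1 window chr11:101551857-101552106 on the plus strand.
Sqstm1: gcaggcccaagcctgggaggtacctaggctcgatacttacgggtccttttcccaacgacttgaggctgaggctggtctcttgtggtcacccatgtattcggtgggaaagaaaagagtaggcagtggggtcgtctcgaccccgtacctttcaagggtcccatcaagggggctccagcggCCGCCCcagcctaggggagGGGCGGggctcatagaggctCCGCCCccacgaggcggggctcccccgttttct
Nbr1: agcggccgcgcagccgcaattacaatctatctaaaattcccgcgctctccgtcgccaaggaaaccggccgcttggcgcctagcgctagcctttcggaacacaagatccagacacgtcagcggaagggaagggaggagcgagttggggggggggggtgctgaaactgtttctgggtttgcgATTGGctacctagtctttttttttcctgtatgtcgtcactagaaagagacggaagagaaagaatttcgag

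The Sqstm1 window held 3 GC boxes, a motif found in 32.7% of 32851 windows of the same length, and the Nbr1 window shown 1 CCAAT box, found in 33.8%. Another Nbr1 window, not shown, held 2 CCAAT boxes. The E-box at the core of the TFEB motif (CACGTG, which reads the same on both strands) was in none of the 7 windows of the 5 receptor genes with an entry, and in 6.02% of all windows. The antioxidant response motif that NRF2 uses (TGACNNNGC, either strand) was in 1 of the 7, a window of Tax1bp1, and in 10.2% of all windows. Sequence outside these windows was not searched, so sites further from the starts would be missed. These matches describe letters only, and no factor binding was measured in the series.

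Tax1bp1 encodes a ubiquitin-binding receptor that also restrains inflammatory signalling through NF-kappaB. It is covered by 4 probe sets, and it held 2 of the 3 receptor probe sets with an unadjusted p under 0.05. The probe set 1420174_s_at had signals of 400 and 298 in hypomorphs, against 186 and 193 in controls. After centring these were 8.26 and 8.29 in hypomorphs and 7.82 and 7.67 in controls, so both hypomorph animals stood clear of both controls. The log2 change of 0.53 ± 0.15 (SE) was 1.44-fold (95% confidence interval 1.15 to 1.81), and 93.2% of tested probe sets had a log2 change at or below this one, falls included. The adjusted p in limma was 0.230. Leaving out each array in turn kept the change between 0.45 and 0.60.

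The brightest Tax1bp1 probe set, 1448399_at, had signals of 1632 and 1115 in hypomorphs, against 648 and 1007 in controls. On the centred scale the hypomorph arrays stood at 10.28 and 10.19 and the control arrays at 9.61 and 10.04. The control animals thus differed from each other by more than the lower hypomorph differed from the higher control. The log2 change was 0.41 ± 0.16 (SE), or 1.33-fold, with an adjusted p of 0.279 in limma, and leaving out control replicate 1 gave 0.19, leaving out control replicate 2 0.63. The remaining Tax1bp1 probe sets overlapped between the groups. Of these, 1442901_at stood at 7.37 and 6.57 in hypomorphs and 6.56 and 6.89 in controls, a log2 change of 0.25 that was -0.15 without hypomorph replicate 1. The probe set 1420175_at stood at 6.13 and 6.47 in hypomorphs and 6.26 and 5.37 in controls, a log2 change of 0.48 for which leaving out control replicate 1 gave 0.93 and leaving out control replicate 2 gave 0.04.

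Calcoco1 encodes a relative of TAX1BP1 that serves as a receptor for parts of the endoplasmic reticulum and Golgi. Its probe set 1428513_at had signals of 182 and 143 in hypomorphs, against 81.0 and 126 in controls, or 7.13 and 7.25 against 6.65 and 7.07 after centring. Its log2 change was 0.33 ± 0.20 (SE), 1.26-fold, with an adjusted p of 0.411 in limma, and leaving out control replicate 1 gave 0.12, leaving out control replicate 2 0.55. The second probe set, 1443121_at, had signals of 98.3 and 79.9 in hypomorphs, against 44.3 and 57.8 in controls. There the groups were further apart than the animals within them, at 6.26 and 6.42 in hypomorphs and 5.81 and 5.97 in controls. The log2 change was 0.45 ± 0.24 (SE), 1.37-fold (95% confidence interval 0.953 to 1.97), with an adjusted p of 0.350 in limma. Both Calcoco1 probe sets lay above the median of the tested genes, by 0.12 and 0.24.

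**Figure D2:**
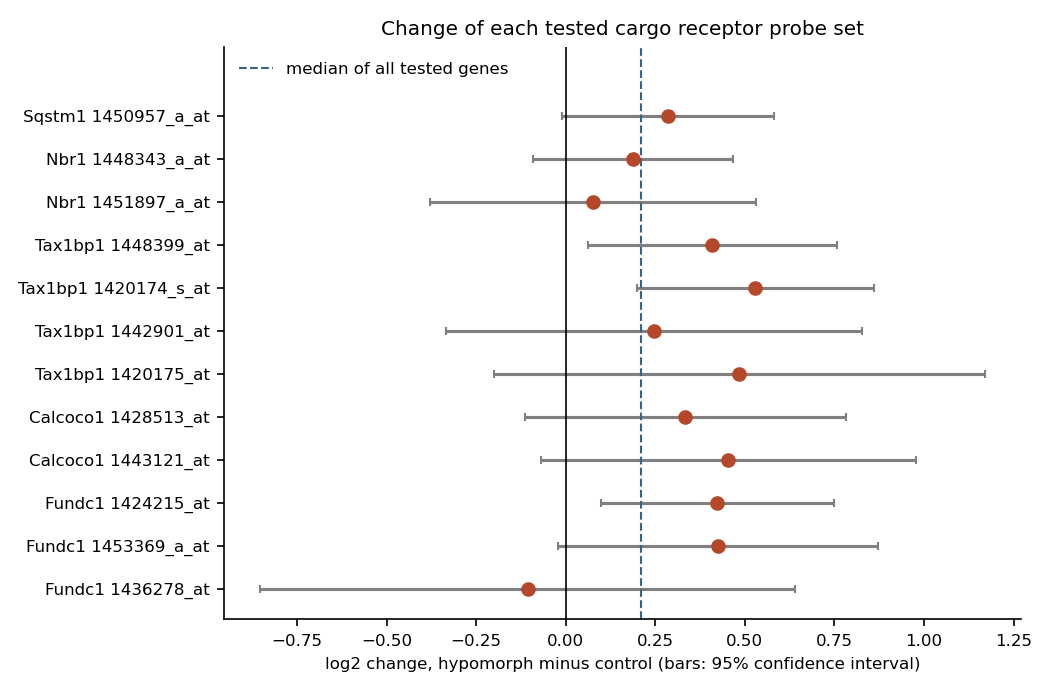
Log2 change (horizontal axis, hypomorph minus control) of the 12 tested cargo receptor probe sets with 95% confidence intervals from limma, with a solid line at 0 and a dashed line at the median of all tested genes, 0.21. The intervals of 3 probe sets, 2 of Tax1bp1 and 1 of Fundc1, lie above 0, and the interval of each of the 12 holds the dashed line.

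Fundc1 encodes a protein of the outer mitochondrial membrane that binds LC3 and is known for removing mitochondria under low oxygen. Its probe set 1424215_at had signals of 430 and 349 in hypomorphs, against 205 and 257 in controls. After centring these were 8.36 and 8.52 in hypomorphs and 7.96 and 8.08 in controls, and the groups lay apart. The log2 change of 0.42 ± 0.15 (SE) was 1.34-fold (95% confidence interval 1.07 to 1.68), with an unadjusted p of 0.0154 and an adjusted p of 0.254 in limma. The probe set 1453369_a_at had the same log2 change, 0.42, from values of 8.23 and 8.16 in hypomorphs and 7.45 and 8.10 in controls. Here control replicate 1 stood apart from the other 3 arrays, and without it the change was 0.10, against 0.75 without control replicate 2. The dim probe set 1436278_at went the other way, at 4.99 and 5.15 in hypomorphs and 4.89 and 5.46 in controls, a log2 change of -0.11 (adjusted p 0.889 in limma) that was 0.18 without control replicate 2.

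Averaging all probe sets of a gene gave 1 value per receptor, compared in a limma fit over 9097 genes whose median log2 change was 0.20. Tax1bp1 stood at 0.42 ± 0.13 (SE, adjusted p 0.227) and Calcoco1 at 0.39 ± 0.18 (SE, adjusted p 0.285). Fundc1, with its dim probe set included, stood at 0.25 ± 0.18 (SE, adjusted p 0.451), against 0.42 on its brightest probe set. Sqstm1 stood at 0.19 ± 0.14 (SE, adjusted p 0.463), against 0.29 on its bright probe set, and Nbr1 at 0.13 ± 0.13 (SE, adjusted p 0.582).

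Fundc1 lies on the X chromosome, so genes that mark the sexes were read beside it. Xist, which is transcribed from the inactive X chromosome, had signals of 47.7 and 3434 in hypomorphs and 29.2 and 2915 in controls. The Y-linked gene Eif2s3y had 703 and 4.52 in hypomorphs and 461 and 3.43 in controls. In both groups Xist was thus low and Eif2s3y high on the array of replicate 1, and the reverse on that of replicate 2. On 1424215_at of Fundc1, replicate 2 was the higher array in both groups, by less than the groups differed. On 1453369_a_at replicate 2 was lower in hypomorphs (8.16 against 8.23) but higher in controls (8.10 against 7.45), there by more than the groups differed. On the dim 1436278_at replicate 2 was higher in both groups, by more than the groups differed.

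Bnip3l encodes NIX, the mitophagy receptor through which maturing red blood cells clear their mitochondria. Its 3 probe sets cannot be told from the pseudogene by annotation, so the values below belong to Bnip3l and Bnip3l-ps together. The brightest, 1416922_a_at, had signals of 1551 and 1087 in hypomorphs, against 866 and 1076 in controls. Its groups lay apart by little after centring, with a log2 change of 0.10 ± 0.13 (SE, adjusted p 0.705 in limma). The other 2 overlapped between the groups, with log2 changes of 0.19 and 0.06 and adjusted p-values of at most 0.861. All 3 lay below the median of the tested genes, and each was negative with quantile normalization, between -0.17 and -0.06.

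Genes of red blood cells were read beside these values. Of their 24 probe sets, 8 were tested and 3 rose in hypomorphs at an adjusted p under 0.05 in limma, against 0.0622% called in either direction among all tested probe sets. All 3 were of haemoglobin alpha or beta, and the list's summed centred signal was 3069 and 3266 in hypomorphs and 1655 and 1934 in controls. One of them, 1452757_s_at of Hba-a1 and Hba-a2, had signals of 1032 and 876 in hypomorphs and 234 and 327 in controls. Of the 9 erythroid genes other than haemoglobin, 2 were tested and neither was called. Ank1, which anchors the red cell membrane skeleton, had signals of 49.1 and 40.1 in hypomorphs and 8.98 and 32.1 in controls, a log2 change of 0.92 (adjusted p 0.333 in limma). Slc25a37, the mitochondrial iron importer, had 890 and 324 in hypomorphs and 457 and 602 in controls, which overlap. The other 7 fell below the filter, with signals of 0.986 to 23.4 over all arrays. They include Alas2, the first enzyme of haem synthesis in these cells, and Klf1, a transcription factor. Alas2 had signals of 10.1 and 4.09 in hypomorphs and 2.66 and 4.17 in controls, and Klf1 13.3 and 5.86 in hypomorphs and 0.986 and 11.1 in controls. The part of erythroid cells in the Bnip3l values was not tested.

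**Figure D3:**
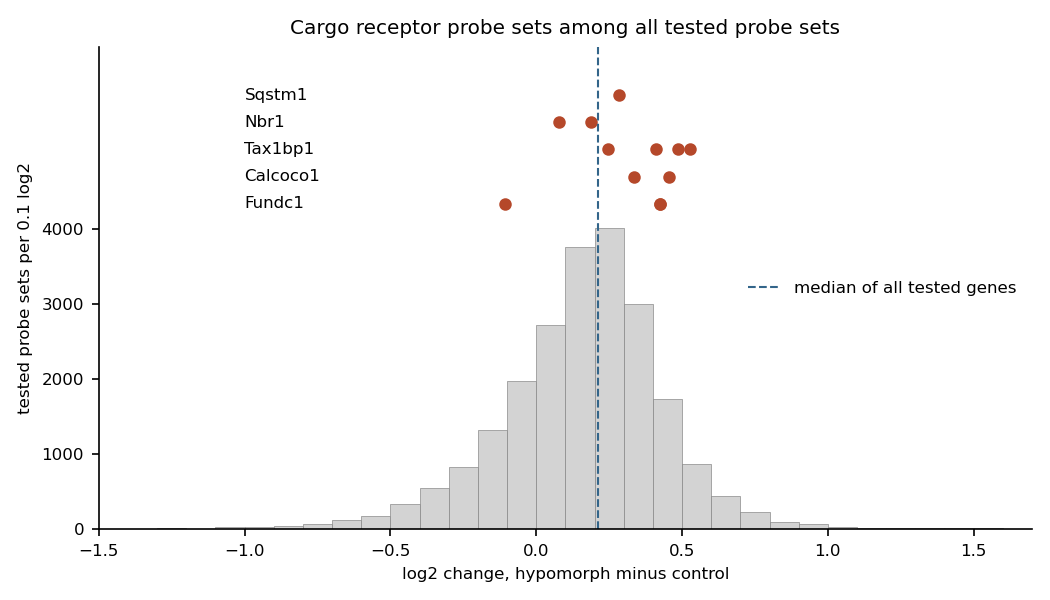
Number of tested probe sets (vertical axis, grey bars) per 0.1 of log2 change (horizontal axis, hypomorph minus control, drawn from -1.5 to 1.7), with the 12 tested cargo receptor probe sets as red points above, 1 row per gene, and the median of all tested genes, 0.21, as a dashed line. The receptors lie within the bulk of the distribution, between -0.11 and 0.53, and 2 points of Fundc1 at 0.42 cover each other.

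Genes that work with the receptors were read in the same fit from 3 lists, each gene by its brightest tested probe set. At an adjusted p under 0.05, 0.0391% of all tested genes were called, and none of the list genes was. The first list followed p62 to the stress response: p62 binds KEAP1, the protein that holds the transcription factor NRF2 in check. Of its 12 genes, 8 were tested, with a median log2 change of 0.19 against 0.21 for all tested genes, and 4 lay above that median and 4 below. The count at an unadjusted p under 0.05 was 0, where 18.2% of all tested genes were higher and 0.889% lower. Nfe2l2, which encodes NRF2, and Keap1 both had a log2 change of 0.17.

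The NRF2 targets with the smallest p-values did not pass either. Slc7a11, the cystine transporter, had signals of 243 and 111 in hypomorphs and 85.2 and 99.9 in controls, a log2 change of 0.49 (adjusted p 0.317 in limma). It was 0.17 without hypomorph replicate 1 and 0.82 without hypomorph replicate 2. Gsr, glutathione reductase, had 205 and 46.0 in hypomorphs and 43.5 and 48.1 in controls, so its log2 change of 0.73 (adjusted p 0.390) came from hypomorph replicate 1, without which it was -0.09. Without hypomorph replicate 2 Gsr passed the threshold (adjusted p 0.0196 in limma), the only call among the list genes in any of the settings tried. Gclc, the catalytic subunit of the enzyme that begins glutathione synthesis, stood at 0.21 (adjusted p 0.420).

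The second list held other receptors and adapters, among them receptors of the endoplasmic reticulum and of ferritin and the kinase TBK1. Of 16 genes, 12 were tested, with a median log2 change of 0.20, 6 above the median of all tested genes and 6 below, and 1 higher at an unadjusted p under 0.05. That gene was Sec62, a receptor in the recovery of the endoplasmic reticulum after stress, with signals of 1499 and 1271 in hypomorphs and 810 and 970 in controls (log2 change 0.31, adjusted p 0.300 in limma). Azi2, an adapter of TBK1, stood at 0.32 (adjusted p 0.311), and Ccpg1, a receptor of the endoplasmic reticulum, at 0.28 (adjusted p 0.370). Sec62 stood at 0.20 without hypomorph replicate 2. Leaving out control replicate 1 gave 0.19 for Azi2 and 0.14 for Ccpg1, and leaving out control replicate 2 gave 0.43 for Ccpg1.

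The third list held partners of mitophagy. Of 14 genes, 13 were tested, with a median log2 change of 0.14, 6 above the median of all tested genes and 7 below, and 3 were higher at an unadjusted p under 0.05. Rheb, a small GTPase that activates mTORC1 and has been linked to mitophagy, had signals of 1624 and 1310 in hypomorphs and 763 and 923 in controls, a log2 change of 0.47 (adjusted p 0.229 in limma). Nipsnap1, a mitochondrial protein that draws receptors to damaged mitochondria, stood at 0.49 (adjusted p 0.271), and Fundc2, the paralogue of Fundc1, at 0.32 (adjusted p 0.290). Nipsnap1 stood at 0.28 without control replicate 1. Pink1, the kinase that marks damaged mitochondria for parkin, had signals of 967 and 325 in hypomorphs and 310 and 526 in controls, which overlap. Bnip3, the relative of Bnip3l, stood at 0.07 (adjusted p 0.907).

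**Figure D4:**
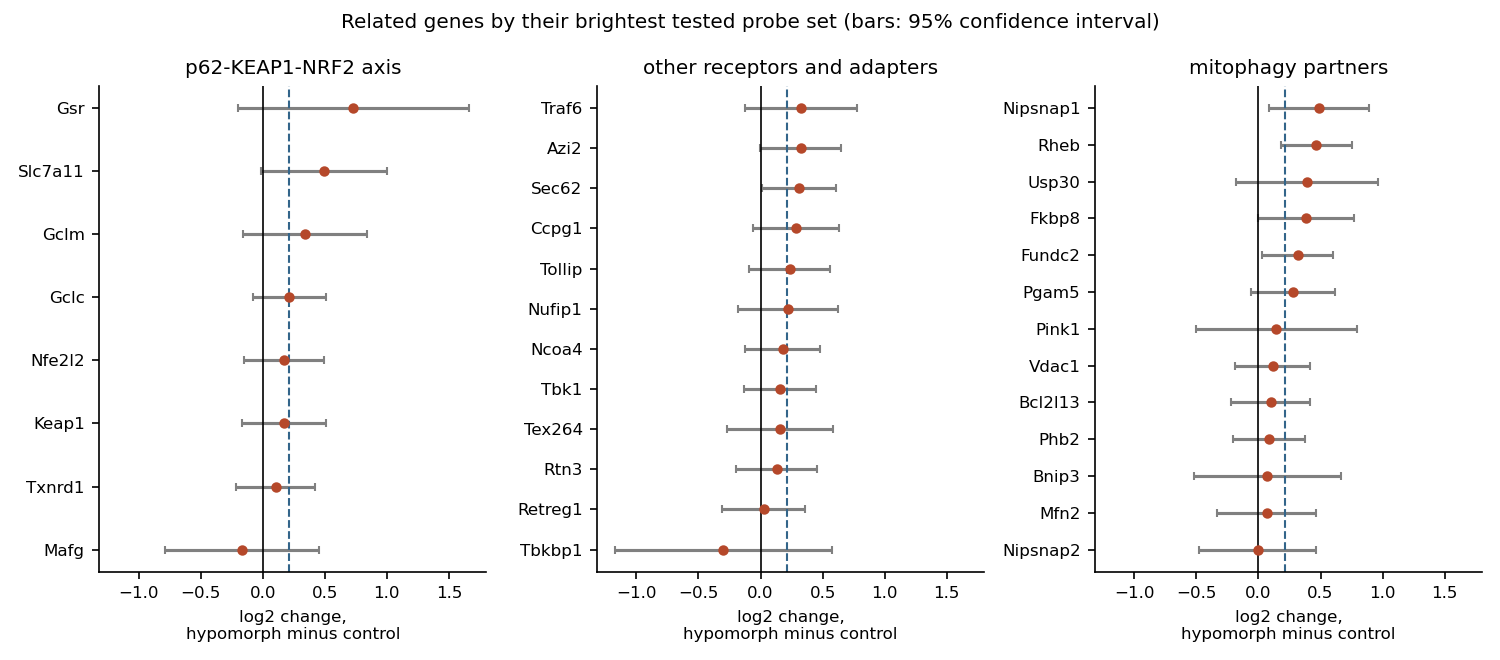
Log2 change (horizontal axis, hypomorph minus control) of the tested genes of 3 related lists, each gene by its brightest tested probe set, with 95% confidence intervals from limma, a solid line at 0 and a dashed line at the median of all tested genes, 0.21. None passed the threshold, and the genes lie on both sides of the dashed line, from -0.30 for Tbkbp1 to 0.73 for Gsr.

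Other cells of the thymus also express cargo receptors, and their markers were read beside the receptor values. The summed centred signal of 6 macrophage genes was 513 and 305 in hypomorphs and 571 and 481 in controls, and that of 4 B cell genes was 363 and 369 in hypomorphs and 462 and 593 in controls. Granulocyte genes varied within the controls, with a sum over 5 genes of 2098 and 3566 in hypomorphs and 618 and 5618 in controls, lowest on control replicate 1. The sums were 195 and 207 in hypomorphs and 245 and 199 in controls for 6 dendritic cell genes, and 174 and 126 in hypomorphs and 147 and 156 in controls for 6 genes of thymic epithelium. The part of these cells in the receptor values was not tested.

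The genes nearest to each receptor in pattern over the 4 arrays were found by the Euclidean distance of centred log2 values, each probe set less its own mean. The nearest were Cdkn2d and C1galt1 for Sqstm1 (distances of 0.0115 and 0.0119), Zbtb12 and Smg1 for Nbr1 (0.0086 and 0.0192), Sympk and Pdia6 for Tax1bp1 (0.0230 and 0.0297), Slc25a44 and Sec22b for Calcoco1 (0.0174 and 0.0215), and Paip2b and Bcs1l for Fundc1 (0.0043 and 0.0113). From 78 genes for Tax1bp1 to 421 for Sqstm1 lay within a distance of 0.1, so 4 arrays do not single out a partner.

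**Figure D5:**
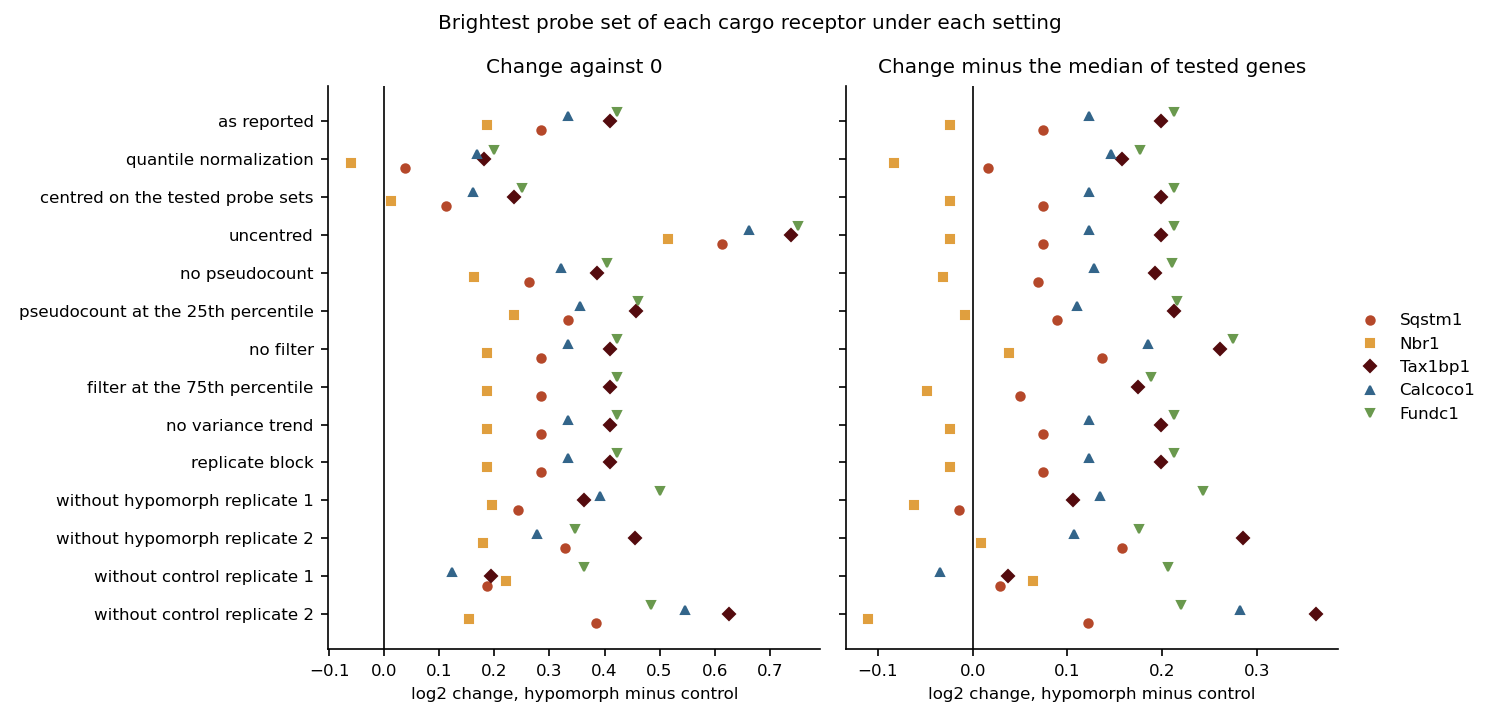
Log2 change (horizontal axes, hypomorph minus control) of the brightest probe set of each cargo receptor as reported and under 13 other settings (rows), against 0 on the left and less the median of the tested genes in that setting on the right. Against 0 the values move with the scaling of the arrays, up to 0.75 for Fundc1 on uncentred values. Relative to the median, Tax1bp1 and Fundc1 stay above it in each row and Nbr1 lies on either side. Sqstm1 falls below it without hypomorph replicate 1 (-0.01) and Calcoco1 without control replicate 1 (-0.03). Calcoco1 has no point with the filter at the 75th percentile, which it did not pass.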

How the data were processed

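Total RNA of thymocytes from 4 mice was hybridised to Affymetrix arrays, 1 per animal. The deposited table holds 1 linear intensity per probe set and array, produced by the Affymetrix software GCOS, as the submitters' processing notes record. Which version and scaling target were used, and any detection calls, no source used here states. Of 45101 probe sets, 64 array controls were left out. Genes were named through GEO's platform annotation (34945 probe sets with 1 symbol, 932 with several, 9160 with none), and genes from probe sets with several are not named singly.

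A pseudocount of 2.29 (10th percentile of the signals) was added before taking log2, and arrays were then shifted to a common median. Fold changes are thus on a log2(value + pseudocount) scale, which understates changes of dim genes. The 22519 probe sets at or above the median mean signal (10235 genes) were put through limma 3.58.1 under R 4.3.3 (hypomorph against control, variance trend, two-sided, Benjamini-Hochberg over all of them, threshold 0.05). A centred signal is the centred value turned back to the linear scale, without the pseudocount. The deposited replicates are separate animals. With 2 arrays against 2, exact permutation cannot give a p below 0.333, so p-values rest on the shared variance model. On simulated data of the same size (hypomorph against control, 22519 probe sets) this fit recovered 34.7% of changes by 2-fold. It recovered 85% of those by 4-fold and 1.7% of those by 1.5-fold. The simulated data held 200 changed probe sets and independent noise drawn from the fitted variance model. Unlike the real arrays, they had no general shift between the groups. The alternatives concerned scaling, pseudocount, filter, variance trend, probe set averaging, the replicate number as a block, and leaving out each array.

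The receptors and lists were chosen with earlier results of these data known. Named were Atg16l1, all receptor probe sets, the called or the 3 lowest-p genes of each related list, and the 2 genes nearest in pattern. Nfe2l2, Keap1, Pink1, Bnip3, Tbkbp1, Alas2, Klf1, Ank1, Slc25a37, Xist, Eif2s3y and a haemoglobin probe set (1452757_s_at) were added after their values were seen.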

Additional observations from a re-analysis of the deposited data

How the results depend on the processing

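With 2 animals a group, changes under 2-fold were mostly missed in the simulated data, which lacked the general shift of the real arrays. No receptor probe set was called under any alternative run, with adjusted p-values of 0.124 to 0.988 in limma. Of 169 values of receptor changes under alternatives, 160 kept their sign. The filter, variance trend and replicate block settings leave the change itself as reported, so their values could not turn. The median change of all tested genes was also positive in each setting, and no such share was taken over all probe sets. The reversed receptor values were -0.061 for Nbr1 1448343_a_at and -0.091 for 1451897_a_at with quantile normalization. When arrays were centred on the tested probe sets, 1451897_a_at was at -0.097 and the untested Sqstm1 1444021_at at -0.079. Leaving out 1 array gave -0.15 to 0.30 for Nbr1 1451897_a_at, -0.15 to 0.64 for Tax1bp1 1442901_at and -0.39 to 0.18 for Fundc1 1436278_at, which was 0.22 on uncentred values. For Bnip3l with its pseudogene, quantile normalization gave -0.13 (1416922_a_at), -0.056 (1416923_a_at) and -0.17 (1448525_a_at), centring on the tested probe sets -0.075 (1416922_a_at) and -0.11 (1448525_a_at), and leaving out 1 array -0.12 to 0.24 for 1448525_a_at. Gsr ranged from -0.093 to 1.55 without 1 array, and Gclc was -0.038 with quantile normalization.

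Receptor probe sets higher at an unadjusted p under 0.05 in limma numbered 3 as reported and 0 after quantile normalization. They numbered 1 when arrays were centred on the tested probe sets and 6 on uncentred values. All tested probe sets with an unadjusted p under 0.05, in either direction, numbered 3624 as reported. That count also moved, to 1558 after quantile normalization, 1693 when centred on the tested probe sets and 3963 on uncentred values. Receptor probe sets with both hypomorph arrays above both controls, 8 as reported, numbered 3 after quantile normalization. They numbered 4 when arrays were centred on the tested probe sets. At a filter of the 75th percentile, 7 receptor probe sets were tested, of which 5 lay above the median of tested genes. For neither count was a share over all probe sets taken in these settings. List genes called numbered 0 to 1 without 1 array.

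Over all probe sets, 14 were called as reported, 4 after quantile normalization, 7 when centred on the tested probe sets, 84 on uncentred values, 4 without the filter, 9 with the replicate block and 9 to 421 without 1 array: 421 without hypomorph replicate 1, 54 without hypomorph replicate 2 and 9 without control replicate 1. Without the variance trend limma called 0, at 2492 with an unadjusted p under 0.05. Atg16l1 lost its call on uncentred values (log2 change -1.25, adjusted p 0.114), and at an unchanged -1.57 without the filter (0.0596) and without the variance trend (0.274). Without 1 array its change was -1.66 to -1.48, with adjusted p-values of 0.0742 without control replicate 1 and 0.0945 without control replicate 2. The replicate block changed no receptor call. The labels do not tie same-numbered animals, and the deviations of their arrays correlated at 0.082. Xist and Eif2s3y did follow the replicate number in both groups, so the block also separates the arrays by these sex markers. In fits without 1 array, the lone animal of a group is assumed to vary like the other group. Such fits also leave Xist and Eif2s3y out of balance between the groups. Apart from the effect of fewer arrays or probe sets, the cause of these shifts was not tested.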
